A study of Mus musculus with 4 samples.

Results

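The 9 genes described here encode subunits of the ionotropic glutamate receptors in the arcuate nucleus of the hypothalamus (ARC) of the mouse. *Gria1* to *Gria4* encode the AMPA receptor subunits, and *Grin1*, *Grin2a*, *Grin2b*, *Grin2d* and *Grin3a* encode NMDA receptor subunits. They were chosen by name, as 9 of the 31053 genes counted in each library. The rule names the genes and uses no threshold on a measured value, though it was set with earlier results of these data known. Single-nucleus RNA sequencing (snRNAseq) was run on bilateral ARC punches of wildtype male C57BL/6J mice, 10 weeks old at collection. In the DOCA-salt group, mice carried a subcutaneous pellet of deoxycorticosterone acetate (DOCA), a mineralocorticoid, and could drink saline beside water for 3 weeks, while Sham mice had sham surgery. Each group has 2 libraries, named by group and pool number (DOCA-salt 1 and 2, Sham 1 and 2), and each library pools the nuclei of 2 mice, so the library was the unit of replication and differences between single mice were not seen.

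AMPA receptors are tetramers that carry fast excitatory current. When the edited GluA2 subunit, the product of *Gria2*, is part of the channel, it passes little calcium. NMDA receptors need GluN1, from *Grin1*, together with GluN2 or GluN3 subunits. Those made of GluN1 and GluN2 bind both glutamate and a co-agonist (glycine or D-serine), and conduct when the membrane is depolarized. GluN3A, from *Grin3a*, binds glycine and lowers the calcium permeability and magnesium block of the channels it joins. Outside neurons, oligodendrocyte precursors are known to receive glutamatergic synapses and to carry AMPA and NMDA receptors.

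The promoter windows of 3 members are shown, picked by their levels in the glial comparisons that follow. In oligodendrocyte precursors *Gria2* and *Gria4* lay near or above their neuronal level, while *Grin1* lay below it. Each window holds the 250 bases before the annotated start (RefSeq, GRCm38.p6, minus strand, 5′ to 3′), and capitals mark matches to the motifs searched. Entries were found for 4 of the 9 members (*Gria2*, *Gria4*, *Grin1* and *Grin2d*), and not for *Gria1*, *Gria3*, *Grin2a*, *Grin2b* and *Grin3a*.
Gria2, chr3:80802836-80803085: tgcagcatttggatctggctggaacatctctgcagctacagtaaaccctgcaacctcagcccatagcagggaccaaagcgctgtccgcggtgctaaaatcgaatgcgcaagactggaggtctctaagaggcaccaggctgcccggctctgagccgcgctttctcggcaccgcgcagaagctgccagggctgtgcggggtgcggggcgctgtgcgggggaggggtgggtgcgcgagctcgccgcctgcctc
Gria4, chr9:4796235-4796484: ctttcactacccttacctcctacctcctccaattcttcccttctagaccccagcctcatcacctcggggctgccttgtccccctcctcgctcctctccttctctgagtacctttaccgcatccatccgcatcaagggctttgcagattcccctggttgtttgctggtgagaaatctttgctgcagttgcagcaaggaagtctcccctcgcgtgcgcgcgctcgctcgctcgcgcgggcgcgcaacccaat
Grin1, chr2:25319188-25319437: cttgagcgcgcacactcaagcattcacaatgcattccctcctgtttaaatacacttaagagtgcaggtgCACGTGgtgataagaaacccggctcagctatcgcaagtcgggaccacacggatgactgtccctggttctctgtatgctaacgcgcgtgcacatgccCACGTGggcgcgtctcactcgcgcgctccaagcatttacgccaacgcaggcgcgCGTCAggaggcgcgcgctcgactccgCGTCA

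The motifs, searched on both strands, were the GC box GGGCGG, the E box CACGTG, the core TGACG of the cAMP response element and the TATA box TATAAA. These motifs occur in 32.7%, 6.02%, 17.8% and 12.4% of all 32851 RefSeq promoter windows of the same length. The *Grin1* window held 2 matches to CACGTG and 2 to TGACG, which appears as CGTCA on the strand shown. None of the 4 motifs was found in the *Gria2* or the *Gria4* window. The *Grin2d* window, not printed, also held none, and *Grin2d* was not called in precursors. Whether the motifs go with the levels was not tested. The GC content was 64.8% for *Gria2* and 58.8% for *Gria4* and for *Grin1*. Over all windows the median was 52.4%, with quartiles of 45.2% and 61.2%, so *Gria4* and *Grin1* lay between the quartiles. *Gria2* lies on chromosome 3 (80681450 to 80802835), *Gria4* on chromosome 9 (4417896 to 4796234) and *Grin1* on chromosome 2 (25291181 to 25319187), all on the minus strand of GRCm38. *Grin1* overlaps the counted antisense gene *Grin1os*, *Grin2b* and *Grin2d* overlap counted genes of the opposite strand (3 and 2, respectively), and *Grin3a* shares its strand with *Ppp3r2*. The mapping summary of the study lists antisense reads apart from reads mapped to the transcriptome, but does not state the strand setting used in counting, so contributions of these neighbors were not assessed.

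Of the called nuclei, 39176 passed the quality limits (2203 to 18907 per library, with 21255137 to 69382757 unique molecular identifiers, UMIs, each a captured transcript). Nuclei were assigned to classes by marker genes that do not include the subunits: 25287 neurons, of which 13668 were GABAergic and 1998 glutamatergic, 1921 astrocytes, 1463 oligodendrocytes, 460 oligodendrocyte precursors, 272 microglia and 243 endothelial cells. The smallest of these classes in a single library held 16 nuclei (microglia of Sham 1), and some kinds of neurons described further on held fewer. These classes are ranges of a marker score rather than clusters: between 0% and 17.1% of a class lay within 20% above its floor. Mixed nuclei (2367), which met more than 1 gate or a glial or vascular gate together with the neuronal floor, were left out. So were nuclei that met no gate (7091). The remaining nuclei were gated as mural cells, leptomeningeal fibroblasts, tanycytes or ependymal cells and are not described. Sham 1 stood apart in depth (a median of 8215 UMIs per kept nucleus against 2401 to 3278), and 21.4% of its barcodes exceeded the upper limits of 7000 genes or 25000 UMIs, against 1.36% to 5.48%. DOCA-salt 1 held the most striatal-type neurons (13.0% of its neurons against 0.844% to 3.59%), which were gated on marker genes of striatal neurons. DOCA-salt 2 also stood apart in its kinds of neurons. It held 198 neurons gated by *Pmch* (9 to 15 in the other libraries) and 123 gated by *Hcrt* (0 to 5). Only 3 of its neurons were gated by *Agrp*, against 34 to 245. Pairs of libraries shared 5 to 49 barcodes.

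All 9 subunits were detected in neurons of all 4 libraries. Levels are given as UMIs of the gene per 1000000 UMIs of the class (CPM), always in the order DOCA-salt 1, DOCA-salt 2, Sham 1, Sham 2. Because the assay counts transcripts from their 3′ ends and levels were not scaled to transcript length, the CPM of each gene is compared across classes and libraries. Shares within a receptor family, given further on, are shares of captured UMIs and not the composition of receptors.

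Among AMPA subunits, neuronal *Gria1*, which encodes GluA1, measured 459.9, 318, 506 and 493 CPM, and *Gria2* measured 1354, 975, 991 and 1063 CPM. For *Gria3*, which encodes GluA3, the neurons held 264, 188, 191 and 183 CPM, and for *Gria4*, which encodes GluA4, 114, 99.8, 127 and 127 CPM. DOCA-salt 1 was highest for *Gria2* and *Gria3*, and the other 3 libraries lay close together for both genes.

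Among NMDA subunits, the obligatory *Grin1* measured 329, 361, 314 and 281 CPM in neurons. *Grin2b*, the GluN2B gene, measured 427, 244, 408 and 409 CPM, and *Grin2a*, the GluN2A gene, measured 102, 52.2, 74.9 and 75.1 CPM. For both GluN2 genes the 2 Sham libraries nearly coincided while the 2 DOCA-salt libraries lay on either side of them. *Grin2d* had the fewest UMIs, at 23.0, 36.8, 30.6 and 28.8 CPM, and *Grin3a* was steadier, at 99.5, 85.9, 108 and 95.4 CPM. Within the UMIs of the 3 GluN2 genes of the list, *Grin2b* took 73.3% to 79.7% in neurons of the 4 libraries, a share of UMIs and not of receptors.

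**Figure D1:**
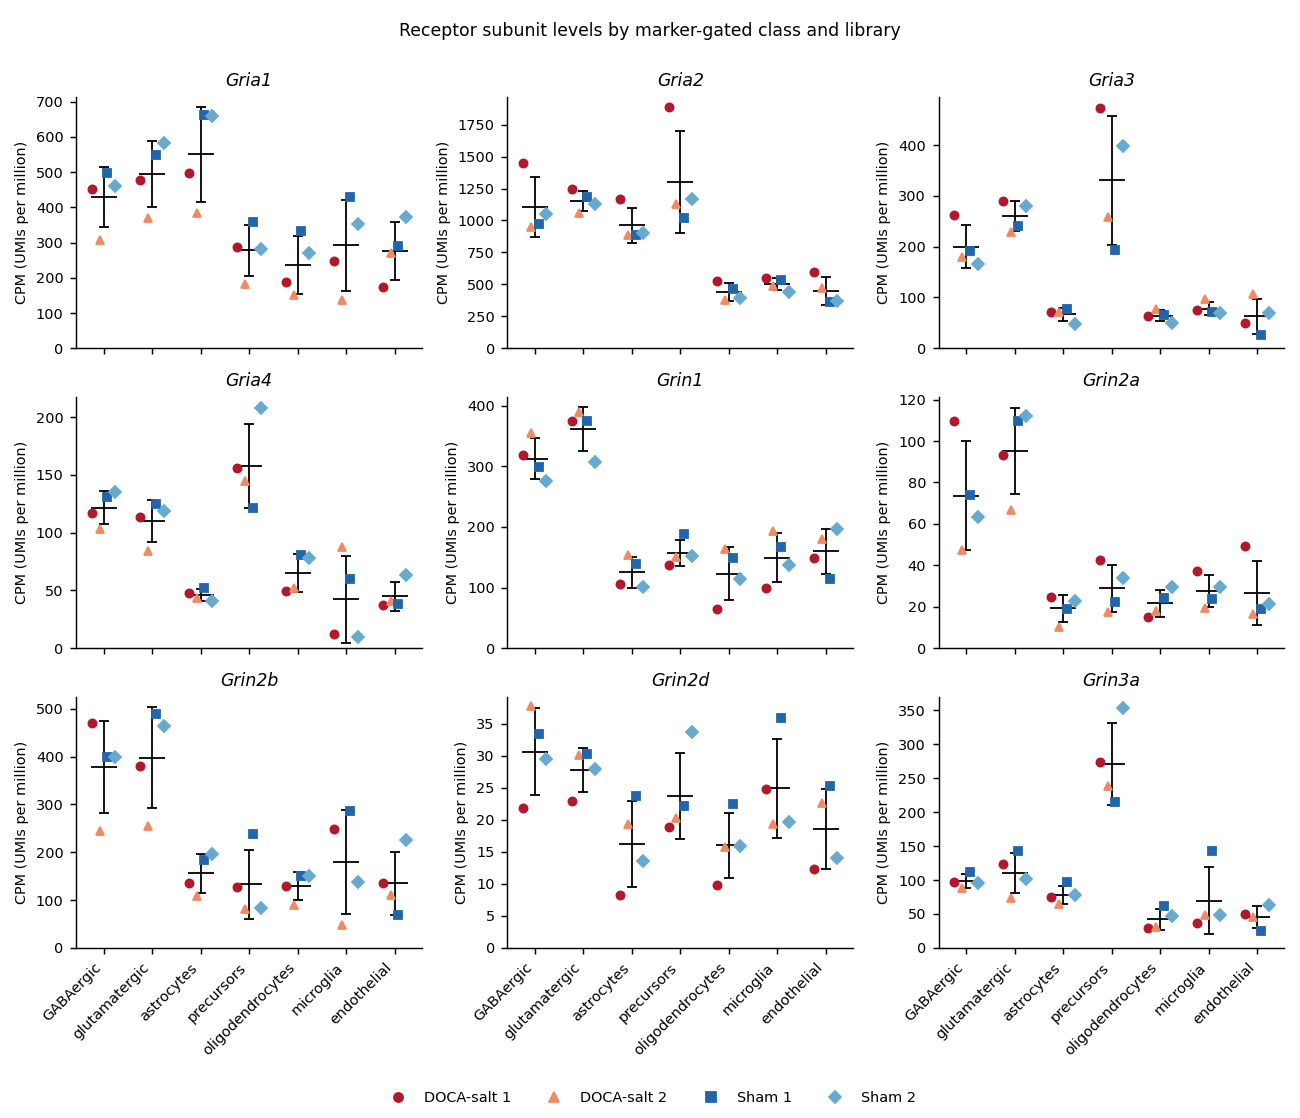
CPM of each subunit (vertical axes, starting at 0) in 7 marker-gated classes, with a point per library and a bar and whiskers for the mean ± SD over the 4 libraries. *Grin3a* in oligodendrocyte precursors (215.5 to 353 CPM) lies above every other class, and *Gria1* has its highest mean in astrocytes (551 CPM).

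Glutamatergic neurons were compared with GABAergic neurons of the same library. *Gria3* and *Grin1* were higher in glutamatergic neurons, while the other 7 members did not pass the test. *Gria3* measured 289, 229, 242 and 280.3 CPM in glutamatergic neurons and 263, 179, 191 and 167 CPM in GABAergic neurons. It was higher in glutamatergic neurons in every library, most of all in Sham 2, with a log2 fold change of 0.40 (SE 0.09, edgeR quasi-likelihood test with library as a block, Benjamini-Hochberg FDR = 0.0190). *Grin1* measured 375, 389, 375 and 308 CPM against 318, 356, 299 and 276 CPM, a log2 fold change of 0.22 (SE 0.06, edgeR FDR = 0.0487). *Gria1* and *Grin2a* had log2 fold changes of 0.22 and 0.40 that did not pass (edgeR FDR = 0.0648 and 0.0986). The remaining members lay between -0.15 (*Gria4*) and 0.12 (*Grin3a*). These 2 calls of 9 members compare with 11.1% of the 14117 genes tested (5.75% called higher and 5.4% lower), and the members' median of 0.12 with -0.02 over all genes. The calls were not stable: leaving out DOCA-salt 2, Sham 1 or Sham 2 brought the FDR of *Gria3* to 0.0559, 0.0587 and 0.103 (edgeR), and leaving out any library ended the call of *Grin1*. Without striatal-type and *Pmch* or *Hcrt* neurons 5 members passed. *Grin2a* was among them (log2 fold change 0.64, edgeR FDR = 0.000122), and *Gria4* was lower (-0.21, edgeR FDR = 0.0493). Calls over all genes moved as well, from 617 to 2048 over the alternatives that kept all libraries, against 1574 here.

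Of the other genes of glutamate signaling, *Cnih3*, which encodes the AMPA receptor auxiliary protein cornichon 3, was higher in glutamatergic neurons (32.7 to 44.1 CPM against 14.9 to 19.7 CPM, log2 fold change 1.21, edgeR FDR = 4.85e-05). It was 1 of 2 higher and 2 lower genes among 19 auxiliary and assembly genes tested. *Grm8* and *Grm5*, metabotropic receptor genes, were also higher (0.72 and 0.65 on the log2 scale, edgeR FDR = 0.00373 and 0.0120), while 1 of the 7 metabotropic genes tested was lower. *Grik1*, a kainate receptor subunit gene, and *Grin2c*, the remaining GluN2 gene of this fixed list, were lower (-1.26 and -1.10 on the log2 scale, edgeR FDR = 0.00338 and 0.00243). In their list of ionotropic subunits outside the members, 3 of 8 tested genes were lower and 1 was higher.

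Kinds of neurons gated by a peptide or amine gene were set beside all neurons of the same library. Neurons gated by *Hdc*, the histamine-synthesizing enzyme, held *Grin3a* at 230.3, 132, 235 and 237 CPM, which is 154% to 249% of all neurons of the same library and above them in 4 of 4 libraries. Their *Gria3* measured 124, 106, 62.6 and 98.1 CPM, between 32.8% and 56.3% of all neurons, and their *Grin2a* lay at 28.9% to 71.0%. In neurons gated by *Agrp*, the hunger-promoting peptide of the ARC, both genes were low: *Grin3a* measured 27.8, 75.6 and 40.3 CPM (27.9% to 69.8% of all neurons) and *Gria3* 113, 112 and 73.5 CPM (40.1% to 58.8%) in DOCA-salt 1, Sham 1 and Sham 2. DOCA-salt 2 had only 3 such nuclei and was left out. Values below all neurons in every library used were not particular to *Agrp* neurons. They occurred in 4 of 9 kinds for *Grin3a* and in 5 of 9 for *Gria3*. Neurons gated by *Pomc* were among both, at 36.5% to 89.2% for *Grin3a* and 63.2% to 93.3% for *Gria3*. Neurons gated by *Tac2*, which encodes neurokinin B, lay above all neurons in 4 of 4 libraries for *Grin2d* (123% to 141%) and *Grin1* (101% to 118%), and neurons gated by *Pomc*, the precursor of melanocortins, lay below for *Gria4* (64.9% to 79.2%). In striatal-type neurons *Grin2a* measured 187, 54.0, 78.5 and 80.5 CPM, against 102, 52.2, 74.9 and 75.1 CPM in all neurons. It lay above all neurons in 4 of 4 libraries (104% to 184%). Only DOCA-salt 1, which held the most of these nuclei, was far above, while the other libraries lay close to all neurons. Over the 9 kinds set beside all neurons, the mean percentage of *Grin3a* ran from 46.6% (*Agrp*) to 213% (*Hdc*) and that of *Grin2a* from 50.1% (*Hdc*) to 125% (striatal-type, raised by DOCA-salt 1). These kinds were described and not tested, and the *Hdc*, *Agrp*, *Tac2* and *Pomc* classes hold 174, 403, 608 and 304 nuclei. The *Hdc* neurons of Sham 1, with the lowest *Gria3* value of that kind, were 12 nuclei.

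Free RNA from neurons can enter any droplet, so the subunits in glia were read beside the sum of 8 neuronal marker genes. These markers stood at 18.8% to 36.5% of their neuronal level in astrocytes, at 22.3% to 39.8% in oligodendrocyte precursors and at 17.6% to 37.4% in oligodendrocytes. Neurons were selected for these markers and nuclei rich in them were kept out of the glial classes, so the marker percentages are lowered by the gate. They are values to read beside the subunits and not an estimate of free RNA, which was not made.

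Astrocytes held *Gria1* above neurons. *Gria1* measured 499, 383, 662 and 659 CPM in astrocytes, which is 108% to 134% of the neuronal level of the same library, and it was higher than in neurons in every library. The log2 fold change over neurons was 0.45 (SE 0.09, edgeR FDR = 8.18e-05). Fitted changes use TMM factors, and those of *Gria1* and *Gria2* here lie above the CPM ratio of every library. *Gria2* measured 1165, 886, 887 and 905 CPM, 85.1% to 90.9% of neurons, and its difference did not pass (log2 fold change -0.04, SE 0.09, edgeR FDR = 0.738). *Grin3a* was likewise near its neuronal level, at 74.3, 64.3, 96.4 and 77.3 CPM (74.7% to 89.0%; log2 fold change -0.19, edgeR FDR = 0.178). The other 6 members were lower in astrocytes, by -0.76 (*Grin2d*) to -1.90 (*Grin2a*) on the log2 scale, with *Gria3* at -1.44, *Grin1* at -1.22, *Gria4* at -1.18 and *Grin2b* at -1.10. *Grin2a* lay at 19.7% to 30.3% of neurons. In all, 7 of 9 members were called, against 40.4% of the 15317 genes tested (18.9% higher and 21.5% lower), and their median was -1.10 against -0.06 over all genes. The call of *Grin2d* was lost without DOCA-salt 2 (edgeR FDR = 0.0526).

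When nuclei were thinned to 1000 UMIs each, *Gria1* was found in 33.5% to 48.0% of astrocytes over the 4 libraries and in 26.7% to 37.0% of neurons. Over these libraries the exact binomial 95% intervals, which cover counting error only, ran from 29.5% to 54.4% and from 25.9% to 38.4%. Without thinning the shares were 38.4% to 93.7% and 63.5% to 92.5%, with medians of 1018 to 4963 UMIs per astrocyte and 3282.5 to 9492 per neuron. Oligodendrocytes, for comparison, had a *Gria1* UMI in 14.7% to 26.4% of thinned nuclei. Of all kept nuclei, thinning left out 1978, 3603, 12 and 925 with fewer UMIs, and the loss was uneven between classes. DOCA-salt 2 lost 515 of 1071 astrocytes and 519 of 11846 neurons, while Sham 1 lost 2 of 111 astrocytes. The thinned shares therefore describe the deeper nuclei of a class.

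The NMDA subunit gene of the fixed list that was highest in astrocytes over neurons was *Grin2c*, which encodes GluN2C. It measured 264, 183, 80.6 and 112 CPM in astrocytes against 11.6 to 19.8 CPM in neurons (log2 fold change 3.59, SE 0.16, edgeR FDR = 4.72e-22). Among 6 tested editing and co-agonist genes, 2 were higher and 3 were lower. The higher ones both handle NMDA co-agonists. *Slc7a10*, a transporter of D-serine and other small neutral amino acids, measured 482 to 573 CPM (3.98 on the log2 scale, edgeR FDR = 5.63e-29). *Slc6a9*, the glycine transporter GlyT1, measured 153 to 243 CPM (2.70 on the log2 scale, edgeR FDR = 4.82e-22). Among 8 tested ionotropic subunits outside the members, 1 was higher and 6 were lower, and among 22 scaffold genes 2 were higher, *Homer3* with the larger log2 fold change (2.66), and 13 were lower.

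**Figure D2:**
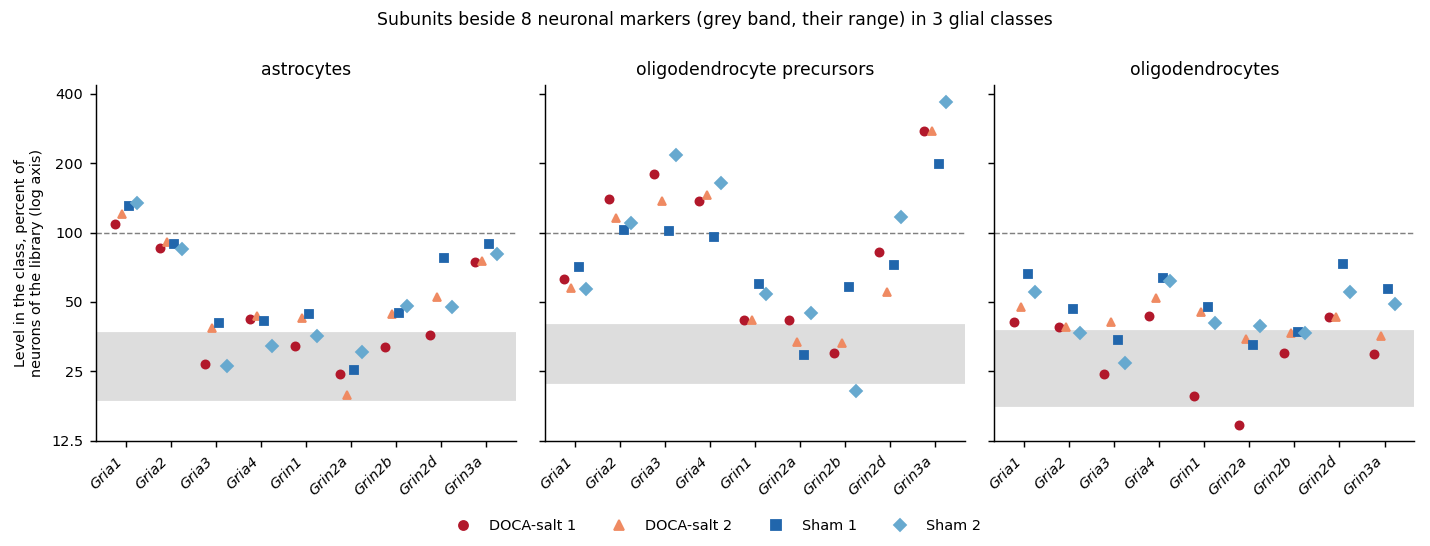
Level of each subunit in 3 glial classes as a percentage of neurons of the same library (log axis), with a point per library, a dashed line at 100% and a grey band for the range of 8 summed neuronal markers. In oligodendrocyte precursors *Grin3a* stands at 199% to 370%, while *Grin2b* lies at 20.6% to 58.2%.

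In oligodendrocyte precursors *Grin3a*, *Gria3* and *Gria4* were higher than in neurons. *Grin3a* measured 274, 238, 216 and 353 CPM in precursors, 199% to 370% of the neuronal level, and every library lay above every value in neurons. Its log2 fold change over neurons was 1.42 (SE 0.12, edgeR FDR = 1.32e-28). *Gria3* measured 472, 258, 193 and 398 CPM (101% to 217%), and its log2 fold change was 0.60 (SE 0.11, edgeR FDR = 2.81e-06). The Sham 1 value of *Gria3*, from 25 nuclei, was at its neuronal level and the other 3 libraries were above it. *Gria4* measured 156, 145, 122 and 208 CPM (96.1% to 164%), a log2 fold change of 0.39 (SE 0.14, edgeR FDR = 0.0293) that was lost in DESeq2 (FDR = 0.0774) and without DOCA-salt 1, DOCA-salt 2 or Sham 2 (edgeR FDR = 0.0872, 0.157 and 0.196). *Gria2* reached 1889.5, 1131, 1017 and 1167 CPM (103% to 140%) and was not called (log2 fold change 0.17, edgeR FDR = 0.231).

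In precursors 4 members were lower than in neurons: *Grin2b* (128, 81.2, 238 and 84.1 CPM; log2 fold change -1.57), *Grin2a* (-1.46), *Grin1* (137, 151, 188 and 151 CPM; -1.12) and *Gria1* (288, 183, 359 and 280.5 CPM; -0.74), the highest edgeR FDR being 3.22e-07. *Grin1* lay at 41.7% to 59.9% of neurons, *Grin2a* at 29.5% to 44.8% and *Grin2b* at 20.6% to 58.2%. With *Grin2d* not called (-0.47, edgeR FDR = 0.328), 7 of 9 members were called against 21.5% of the 14634 genes tested (9.27% higher and 12.2% lower). The members' median was -0.47 and that of all genes -0.12. Of the UMIs of the 5 NMDA members, *Grin3a* held 45.7%, 46.9%, 31.5% and 53.8% in precursors and 10.1% to 11.6% in neurons.

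At 1000 UMIs per nucleus, *Grin3a* was found in 18.3% to 30.0% of precursors (28.8% to 76.0% without thinning), against 7.93% to 10.4% of neurons (28.1% to 57.7%) and 1.32% to 8.05% of oligodendrocytes (3.30% to 32.2%). The exact 95% intervals for precursors ran from 9.77% to 46.7%, since Sham 1 gave only 24 precursors at this depth. *Gria3* was found in 16.7% to 37.2% of precursors and 15.5% to 22.2% of neurons after thinning, so for this gene the thinned shares overlapped.

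The difference also held within the oligodendrocyte lineage. Compared with oligodendrocytes of the same library, precursors were higher for *Grin3a* (log2 fold change 2.52, edgeR FDR = 2.37e-16), *Gria3* (2.08, 3.05e-14), *Gria2* (1.37, 2.19e-14) and *Gria4* (1.12, 4.85e-06). *Gria1*, *Grin1* and *Grin2b* differed by 0.07, 0.11 and -0.17 and were not called, and *Grin2a* and *Grin2d* had too few UMIs to be tested. These 4 of 7 compare with 25.6% of 7219 genes (13.2% called higher and 12.4% lower), and leaving out any single library kept the count at 4. The oligodendrocytes themselves were low for all 9 members against neurons (-0.62 for *Gria4* to -1.43 for *Gria3*, median -1.12), where 35.2% of 14738 genes were called, 15.3% higher and 19.8% lower. The call of *Grin2d* there (-0.71, edgeR FDR = 0.0115) was lost in DESeq2 (FDR = 0.0857) and without DOCA-salt 2 or Sham 2 (edgeR FDR = 0.231 and 0.0514).

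Auxiliary genes of AMPA receptors set precursors apart as well. *Cacng4*, a transmembrane AMPA receptor regulatory protein (TARP γ-4), measured 619, 383, 409.1 and 746 CPM in precursors against 44.4 to 121 CPM in neurons, a log2 fold change of 2.67 (SE 0.10, edgeR FDR = 1.21e-147). *Cacng7*, which encodes another TARP, and *Shisa7* were higher by 0.83 and 0.47 on the log2 scale (edgeR FDR = 0.000174 and 0.0185), and in all 4 of 19 auxiliary genes were higher and 4 lower. *Adarb2*, a member of the RNA editing enzyme family with no known editing activity, measured 107 to 138 CPM in precursors against 24.7 to 38.2 CPM in neurons (log2 fold change 1.82, edgeR FDR = 3.52e-20). It was 1 of 2 higher and 2 lower genes among 6 editing and co-agonist genes tested. Metabotropic receptor genes were lower in 3 of 7 cases and higher in none.

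**Figure D3:**
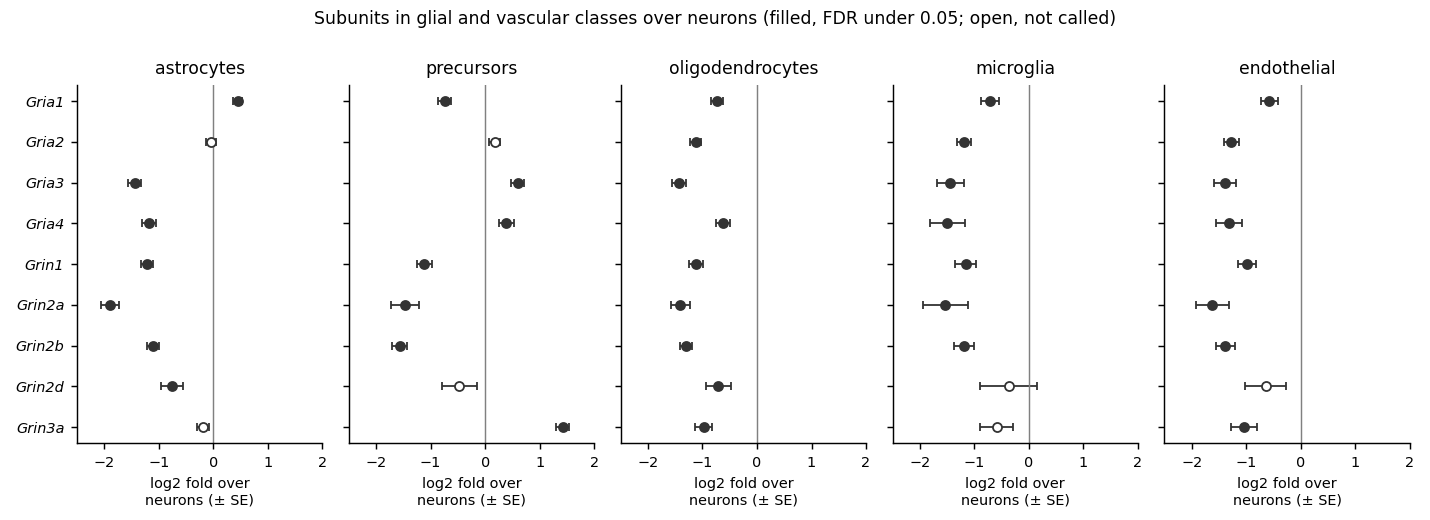
Log2 fold change of each subunit in glial and vascular classes over neurons, with its SE, from edgeR with library as a block. Filled points passed an FDR of 0.05, and *Gria1* in astrocytes and *Gria3*, *Gria4* and *Grin3a* in precursors are the filled points to the right of 0.

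In microglia and endothelial cells no member was called higher than in neurons. In microglia 7 of 9 members were lower, where 16.9% of 14586 genes were called, 7.79% higher and 9.16% lower, and in endothelial cells 8 of 9, where 27.2% of 14870 genes were called, 14.1% higher and 13.1% lower. The log2 fold changes of those called ran from -0.71 (*Gria1*) to -1.53 (*Grin2a*) in microglia and from -0.58 (*Gria1*) to -1.62 (*Grin2a*) in endothelial cells. *Grin2d* was called in neither, nor was *Grin3a* in microglia (-0.59, edgeR FDR = 0.175), though it passed with nuclei thinned to 2000 UMIs (-1.14, edgeR FDR = 0.0196) and without Sham 1 (-1.05, edgeR FDR = 0.0299). The neuronal markers stood at 19.4% to 44.4% of neurons in microglia and at 19.0% to 42.2% in endothelial cells, while *Gria1* stood at 42.6% to 85.0% and at 37.6% to 84.6%. Single microglial libraries lay above neurons for *Grin2d* (up to 117%, from 2 or 3 UMIs a library) and *Grin3a* (up to 132%). DESeq2 did not call *Gria1* or *Grin2a* in microglia (FDR = 0.0624 and 0.0678), and *Grin3a* in endothelial cells was lost when nuclei were thinned to 2000 UMIs (edgeR FDR = 0.133). The median of all genes in these comparisons was -0.28 in microglia and -0.15 in endothelial cells. With RLE size factors in place of TMM the microglial median was -0.14, and the genes called there split into 1251 higher and 878 lower in place of 1136 and 1336.

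Ordered by the mean over the 4 libraries, oligodendrocyte precursors came first for *Gria2* (1301 ± 397 CPM, SD, n = 4), *Gria3* (331 ± 128), *Gria4* (157 ± 36.3) and *Grin3a* (270.2 ± 60.5), glutamatergic neurons for *Grin1* (362 ± 36.5), *Grin2a* (95.3 ± 20.8) and *Grin2b* (397 ± 105), astrocytes for *Gria1* (551 ± 135) and GABAergic neurons for *Grin2d* (30.6 ± 6.77). Only for *Grin1* and *Grin3a* did the first class exceed the next by more than the larger SD of the 2 (GABAergic neurons at 312 ± 33.8 and glutamatergic neurons at 110.2 ± 29.2 CPM). Across the 28 sums of 7 classes and 4 libraries, *Gria3* ran closest to *Gria2* (r = 0.80), *Grin3a* (0.78) and *Gria4* (0.73) among the members and was least like *Gria1* (0.17). Over all 10762 genes compared, the most alike gene was *Shisa7* for *Gria3* (r = 0.94), *Nrxn2* for *Grin3a* (0.90), *Dclk1* for *Gria2* (0.91), *Clstn3* for *Grin1* (0.93), *Elfn2* for *Gria4* (0.90) and *Cit* for *Gria1* (0.85). These coefficients describe sums that share libraries and depth, and that may share free RNA.

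DOCA-salt was compared with Sham in all kept nuclei and in each of 8 classes. No member was called in any of the 9 comparisons with edgeR, and none with DESeq2. Among all genes edgeR called 0 of 16564 in all kept nuclei, 0 of 16172 in neurons and 0 of 15187 in GABAergic neurons (0% each), while an unadjusted p under 0.05 was reached by 1399, 1331 and 1089 genes and DESeq2 called 107, 96 and 55. In the other classes edgeR called between 1 and 4 genes (0.00802% in glutamatergic neurons, 0.0434% in astrocytes, 0.0215% in oligodendrocytes, 0.0203% in precursors, 0.0469% in microglia and 0.0273% in endothelial cells). For a single value, a two-sided exact permutation of 2 against 2 libraries cannot go below p = 0.333. The p-values measure the spread between these pools of mice only.

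*Gria1* was the member whose groups did not overlap in the most classes. In neurons it measured 459.9 and 318 CPM after DOCA-salt and 506 and 493 CPM after Sham, a log2 fold change of -0.40 (SE 0.22, edgeR FDR = 0.651). In oligodendrocytes it measured 188 and 151 CPM against 334 and 272 CPM, with -0.87 (SE 0.28, edgeR FDR = 0.343). In 7 of 8 classes both DOCA-salt values lay below both Sham values, precursors being the exception (288 and 183 against 359 and 280.5 CPM). Of all genes, 36% to 43.2% did not overlap between the groups in the same classes, in either direction. The classes share the same 4 libraries, so they are not 8 independent observations. None of these differences passed the test, astrocytes (-0.60, edgeR FDR = 0.513), glutamatergic neurons (-0.45, edgeR FDR = 0.577) and microglia (-1.01, edgeR FDR = 0.808) included. The 2 Sham libraries were also the deeper ones, and with nuclei thinned to at most 2000 UMIs the log2 fold change was -0.37 in neurons and -0.77 in oligodendrocytes. The 8 neuronal markers summed were lower too in oligodendrocytes, astrocytes and microglia. In oligodendrocytes they measured 2325 and 3128 CPM after DOCA-salt against 4347 and 3339 CPM. They measured 2471 and 3186 against 4245 and 3205 CPM in astrocytes, and 2556 and 3449.6 against 5172.5 and 3573 CPM in microglia. DOCA-salt 2 and Sham 2 lay close in each of these classes. In endothelial cells, where *Gria1* was lower without overlap, and in precursors, the marker sums of the groups overlapped. The part of the markers in the glial and endothelial *Gria1* values was not tested. In summed counts, fewer nuclei that express a gene and less RNA per nucleus cannot be told apart.

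*Grin2b* had lower values after DOCA-salt in glutamatergic neurons, at 381 and 255 CPM against 489 and 464 CPM (log2 fold change -0.62, SE 0.23, edgeR FDR = 0.494). In astrocytes it measured 135 and 108 CPM against 183 and 197 CPM (-0.67, SE 0.27, edgeR FDR = 0.437). In GABAergic neurons the groups overlapped, at 471 and 244 CPM against 399 and 398 CPM. *Grin2a* in glutamatergic neurons measured 93.1 and 66.7 CPM against 109 and 112 CPM (-0.51, SE 0.21, edgeR FDR = 0.516). The DOCA-salt effect in glutamatergic neurons minus that in GABAergic neurons was -0.58 for *Grin2a* and -0.36 for *Grin2b*, with an edgeR FDR of 1.00 for both. Of 14117 genes edgeR called 0 in this comparison of effects (0%), 384 had an unadjusted p under 0.05, and DESeq2 called 0.

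These values turned on DOCA-salt 1. Without it, edgeR called *Grin2b* (-0.92, FDR = 2.18e-05), *Gria1* (-0.63, FDR = 0.00495), *Grin2a* (-0.76, FDR = 0.00712) and *Grin3a* (-0.69, FDR = 0.0152) in glutamatergic neurons, *Gria1* (-0.81, FDR = 0.0257) and *Grin2b* (-0.84, FDR = 0.0236) in astrocytes, and *Grin2b* in all kept nuclei (-0.73, FDR = 0.0453), all lower after DOCA-salt. Calls rose over all genes as well, from 1 to 1265 of 12648 in glutamatergic neurons, from 4 to 386 of 9867 in astrocytes and from 0 to 771 of 16929 in all kept nuclei, so the gain was not limited to the members. DOCA-salt 2, the library with the most *Pmch* and *Hcrt* neurons, then stood alone in its group and was assumed to vary like the Sham libraries. Without DOCA-salt 2, *Grin2a* was the only member called, in the difference between glutamatergic and GABAergic neurons (-0.93, edgeR FDR = 0.000984), where 251 of 14527 genes were called in place of 0. With all libraries but without striatal-type and *Pmch* or *Hcrt* neurons, edgeR called 0 members and 0 genes in all kept nuclei, neurons and GABAergic neurons. The median log2 fold change of the members then moved from -0.05 to -0.17, from -0.01 to -0.19 and from -0.09 to -0.18. This was not run for glutamatergic neurons.

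*Grin1* was higher after DOCA-salt without overlap in 3 classes, which are neurons and their GABAergic and glutamatergic parts, and lower in 1. In neurons it measured 329 and 361 against 314 and 281 CPM (log2 fold change 0.18, edgeR FDR = 0.778). In glutamatergic neurons the nearest values of the groups were 375.1 CPM (DOCA-salt) and 374.9 CPM (Sham). *Gria4* was lower without overlap in 4 classes, namely neurons, GABAergic neurons, glutamatergic neurons and oligodendrocytes. Its neuronal values were 114 and 99.8 against 127 and 127 CPM (-0.28, edgeR FDR = 0.651). *Gria2* and *Gria3* overlapped between groups in 7 of 8 classes each, with log2 fold changes of 0.14 and 0.23 in neurons (edgeR FDR = 0.859 and 0.729). *Grin2d* overlapped in 6 of 8 and *Grin3a* in 5, with -0.01 and -0.17 in neurons (edgeR FDR = 0.996 and 0.753). Counted per comparison, 3 of 9 members did not overlap in all kept nuclei, neurons, GABAergic neurons and astrocytes, where 43%, 43.2%, 40.7% and 39.9% of all genes did not. In glutamatergic neurons 5 of 9 members did not overlap (42.9% of all genes), in oligodendrocytes 6 of 9 (40.1%), in precursors 1 of 7 (37.3%), in microglia 1 of 4 and in endothelial cells 2 of 5 (36% each). The members' share was above that of all genes in glutamatergic neurons, oligodendrocytes and endothelial cells, and below it in the other 6 comparisons. The DOCA-salt effect in astrocytes minus that in neurons was called for no member (edgeR, highest FDR 1.00, lowest 0.839, for *Grin2b*), where 2 of 15317 genes were called (0.0131%). With 2 libraries per group this cannot show that the effects are equal. None of the other glutamate signaling genes of the fixed lists was called in any of the 9 comparisons of DOCA-salt with Sham.

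**Figure D4:**
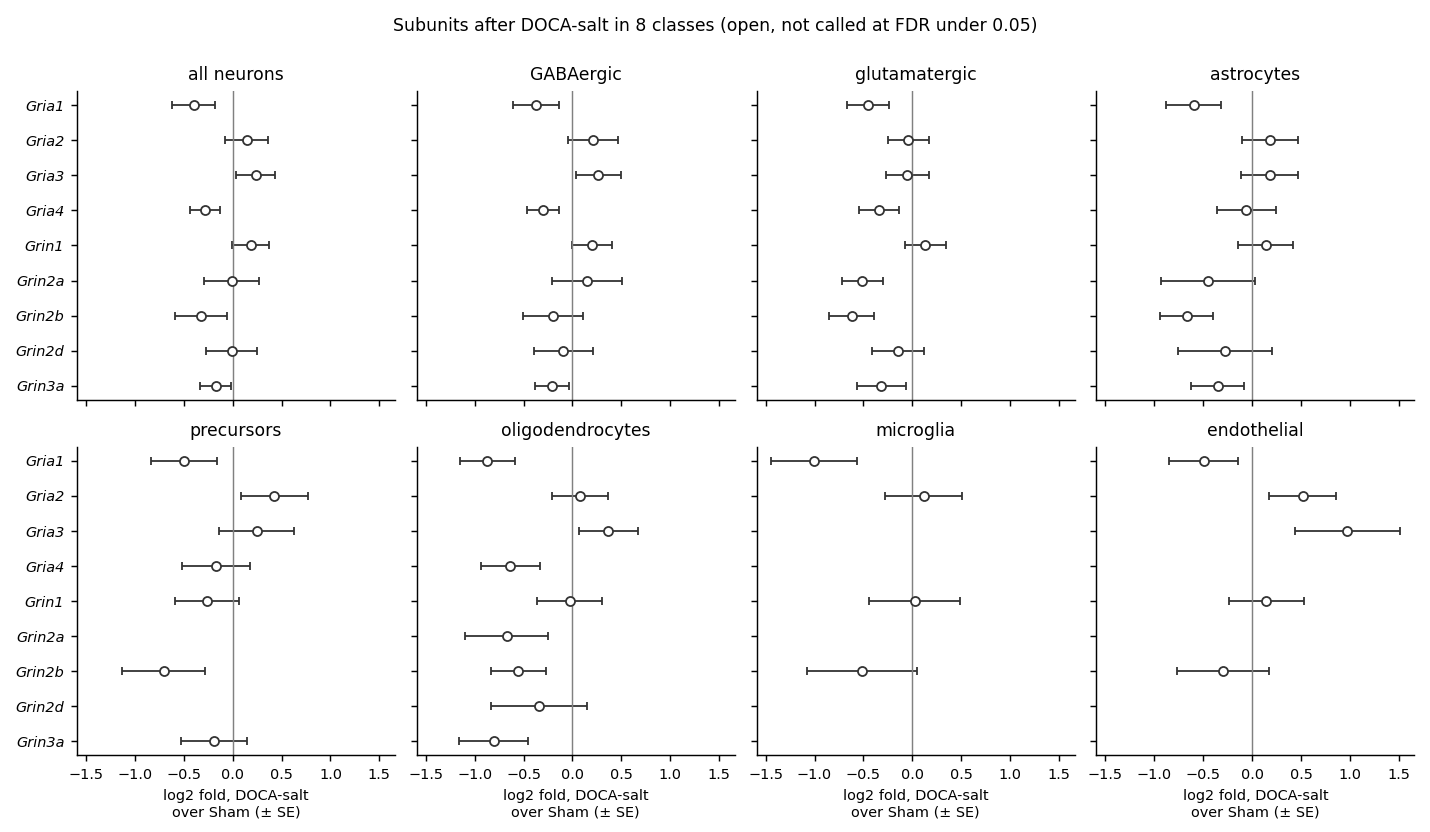
Log2 fold change of DOCA-salt over Sham with its SE in 8 classes, from edgeR on sums of 2 libraries per group. All points are open, since none passed an FDR of 0.05, and members with too few UMIs in a class have no point.

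Within the AMPA family the shares of *Gria1* and *Gria2* did not overlap between the groups in any class, which 2 against 2 libraries cannot show to be a difference. In neurons *Gria1* made up 21.0% and 20.1% of the UMIs of the 4 AMPA genes after DOCA-salt and 27.9% and 26.4% after Sham, and *Gria2* made up 61.8% and 61.7% against 54.6% and 57.0%. The groups did not overlap and lay closer together within than between, with means of 20.6% ± 0.606 against 27.1% ± 1.06 (SD, n = 2) for *Gria1*. In astrocytes *Gria1* made up 28.0% and 27.7% against 39.5% and 39.9%, and *Gria2* made up 65.3% and 64.0% against 52.8% and 54.7%. The same order, with *Gria1* lower and *Gria2* higher after DOCA-salt, held without overlap in 8 of 8 classes, precursors included (*Gria1* 10.3% and 10.6% against 21.2% and 13.7%). Small classes rest on few UMIs. The poorest library held 69 AMPA UMIs in endothelial cells, 71 in microglia and 168 in oligodendrocytes. The fewest *Gria1* UMIs in a library were 14 in both microglia and endothelial cells.

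These 8 classes come from the same 4 libraries, and GABAergic and glutamatergic nuclei are part of the neurons, so the classes are not 8 independent observations. Neuronal RNA free in the suspension, which was not estimated, can also enter any of them. Shares of a family sum to 100%, so a lower *Gria1* share raises the others, and each exact two-sided permutation p was 0.333, the smallest that 2 against 2 libraries allow. Over all members and classes 34 of 72 shares did not overlap, while 36% to 43.2% of all genes did not overlap in CPM in the same classes. CPM is another measure, and shares within other gene families were not counted. The Sham libraries were also the deeper ones, with medians of 8215 and 3278 UMIs per kept nucleus against 2401 and 2534 after DOCA-salt. With nuclei thinned to at most 2000 UMIs, the number of non-overlapping shares stayed within 1.5 times 34. The part of depth in the single shares was not tested otherwise. *Gria3* shares were higher without overlap in 4 classes and *Gria4* shares lower in 5. In the NMDA family *Grin2b* took a lower share after DOCA-salt in 3 classes (glutamatergic neurons, 38.3% and 31.3% against 42.7% and 45.8%) and *Grin1* a higher share in 3 (glutamatergic neurons, 37.7% and 47.7% against 32.7% and 30.4%).

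**Figure D5:**
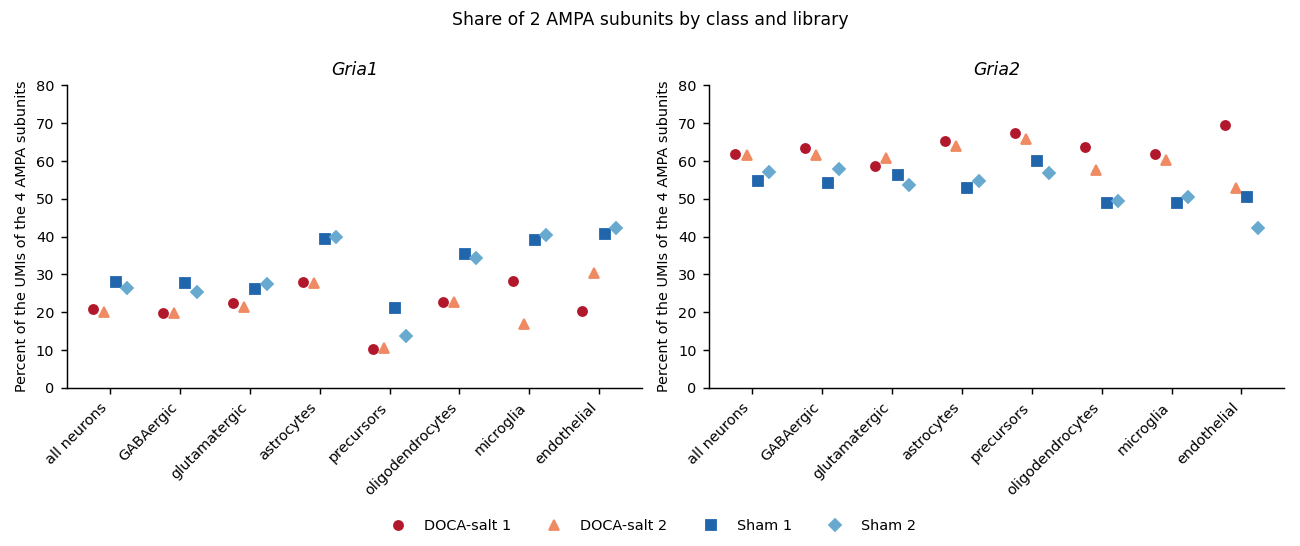
Share of *Gria1* and *Gria2* among the UMIs of the 4 AMPA subunit genes (vertical axes, percent, starting at 0) in 8 classes, with a point per library. In each class both DOCA-salt points lie below both Sham points for *Gria1* and above them for *Gria2*.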

How the data were processed

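The authors deposited whole UMI counts per gene and barcode for 4 libraries, made with Cell Ranger 3.0.1 on GRCm38/mm10 (submitters' processing notes); the counts were not normalized. The study lists intronic reads apart from reads mapped to the transcriptome, whose share lies below the exonic share, but whether intronic reads were counted is not stated outright. Following the limits of the study, nuclei were kept with over 200 and under 7000 genes, under 25000 UMIs and under 15% mitochondrial UMIs. They were gated on at least 4 markers of a class and a floor of marker UMIs per 10000 (60 for neurons, 50 for astrocytes, 100 for oligodendrocytes, 20 for the others). Neurons were split by at least 2 UMIs of transmitter markers and a ratio of 4, and kinds of neurons by at least 3 UMIs of the named gene at 10 or more times its mean share of UMIs in the library. Striatal-type neurons carried at least 4 of a list of striatal markers, with no floor of marker UMIs. Floors were set after seeing marker distributions, without the subunits. No doublet caller was run.

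Counts were summed per class and library, where each library of a comparison had at least 10 nuclei, and compared with edgeR 4.0.16 (TMM, filterByExpr, quasi-likelihood test, Benjamini-Hochberg FDR under 0.05 over all genes tested) under R 4.3.3. CPM were not length-scaled. Classes were compared with library as a block. The MAST test of the study, which treats nuclei as replicates, was not run. Alternatives were DESeq2 1.42.0, RLE size factors, no filter of low counts, no upper limits, thinning to 2000 UMIs, stricter and looser gates, a replicate block, leaving out striatal-type and *Pmch* or *Hcrt* neurons, and leaving out each library. Scripts were tested on simulated data with 200 changed genes. For DOCA-salt over Sham, edgeR found 22% of log2 changes of 1 in neurons and 23% in astrocytes, with 15 and 4 false calls. It found 75% and 90% of log2 changes of 2. For glutamatergic over GABAergic neurons and astrocytes over neurons it found 74% and 55% of log2 changes of 1, with 16 and 7 false calls.

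All 9 members entered every comparison in which their UMIs passed the filter, and those not printed singly are given by range or count. Of 5 fixed lists (ionotropic subunits, metabotropic receptors, auxiliary subunits, scaffolds, and editing and co-agonist genes), values are given for at most 3 genes a list that passed the test or lay at its ends. The most alike genes are those of highest Pearson r of log2(CPM + 1) among genes averaging at least 20 CPM in a class. Members and lists were chosen with earlier results of these data known.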

Additional observations from a re-analysis of the deposited data

How the results depend on the processing

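No called member changed direction under any alternative. In astrocytes over neurons, precursors over neurons, precursors over oligodendrocytes and the other glial comparisons, the number of members called stayed within 1.5 times the reported count. The comparison of glutamatergic with GABAergic neurons (2 members) was the exception: 4 members were called with no filter of low counts, 1 with nuclei thinned to at most 2000 UMIs, 1 with a stricter gate and 5 without striatal-type and *Pmch* or *Hcrt* neurons. Over the alternatives that kept all libraries, 617 to 2048 genes were called there, against 1574. The cause was not tested. With 1 library left out in turn, members called ranged from 0 to 3 there, from 0 to 1 for DOCA-salt in all kept nuclei, 0 to 4 in glutamatergic neurons, 0 to 2 in astrocytes and 0 to 1 for glutamatergic minus GABAergic neurons, and non-overlapping shares from 46 to 61 of 72 (34 with all libraries), since fewer libraries overlap less often.

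Whether the pool numbers pair the samples could not be told. The deviations of DOCA-salt 1 and Sham 1 from their group means gave r = -0.22 over 16564 genes. With 2 libraries per group, crossed numbers give the same r with the opposite sign. With the number as a replicate block 0 members were called in each of 9 comparisons, and 39 genes in glutamatergic neurons, 16 in astrocytes, 29 in oligodendrocytes, 4 in precursors and 3 in endothelial cells against 1, 4, 2, 1 and 1. With the numbers crossed, chosen after seeing the data, 0 members and 1 to 159 genes were called. Over the alternatives that kept all libraries, genes called for DOCA-salt ranged from 0 to 142 in all kept nuclei, 0 to 333 in neurons, 0 to 55 in GABAergic neurons, 1 to 119 in glutamatergic neurons, 1 to 159 in astrocytes, 2 to 88 in oligodendrocytes, 1 to 15 in precursors, 1 to 7 in microglia, 1 to 19 in endothelial cells, 0 to 74 for glutamatergic minus GABAergic neurons and 1 to 76 for astrocytes minus neurons. In the class comparisons the fewest genes called were 617 against 1574 between the neuron classes, 1970 against 3139 in precursors, 1485 against 2472 in microglia and 1004 against 1845 between precursors and oligodendrocytes. Small classes limit depth: *Grin2d* had 1 to 5 UMIs in the poorest library of each glial and endothelial class.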
